A study of Mus musculus with 12 samples.

Results

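Committed preadipocytes were examined in single-nucleus RNA sequencing of 4 mouse adipose depots, as nuclei that carried transcripts of Bmper, Col15a1, Pparg, Lpl or Icam1 on top of stromal transcripts. A nucleus was first called stromal, that is an adipose stem and progenitor cell, when the summed unique molecular identifiers (UMIs) of Pdgfra, Dcn, Lama2, Col1a1, Col1a2, Col3a1 and Fbn1 were at least 3. This sum also had to exceed that of Adipoq, Plin1, Acsl1, Flt1, Ptprb, Mrc1 and Ptprc, genes of adipocytes, endothelial cells and immune cells. Of the stromal nuclei, the committed set needed at least 2 UMIs over Icam1, Pparg, Col15a1, Lpl and Bmper, more of these than of the progenitor genes Dpp4, Pi16, Cd55, Sema3c and Anxa3, and none of Fmo2. This gave 3971 committed nuclei, 47.8% of 8306 stromal nuclei and 3.71% of the 106898 nuclei kept, which had 300 genes or more and no more than 10% mitochondrial UMIs. Each library held between 59 (cold mPRAT) and 859 (iWAT at room temperature) of them. The same 12 libraries held 1664 nuclei of the mirrored rule (at least 2 UMIs of the progenitor genes, more of these than of the committed genes, no Fmo2), called progenitor-rule nuclei here, and 1532 Fmo2-positive stromal nuclei.

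All mice were male C57BL/6J on normal chow, and no label gives a genotype or transgene. Depots are named mPRAT, lPRAT, iBAT and iWAT. The first pair commonly stands for perirenal fat, medial and lateral, the others for brown fat between the shoulder blades and white fat of the groin. At room temperature (RT, 22 °C) there was 1 library each of mPRAT and iBAT at 1, 2 and 6 months, of lPRAT at 2 and 6 months, and of iWAT at 6 months. After 3 days at 4 °C (CE) there was 1 library each of mPRAT, iBAT and iWAT at 6 months. The titles call the oldest mice 6 months old while their age field reads 16 weeks, so their age is uncertain. The labels do not say how many animals entered a library, nor at what time of day tissue was taken. With 1 library per group, each p-value of a gene below measures a difference against what an additive model of depot and condition leaves over between libraries.

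White and brown fat cells arise from Pdgfra-positive stromal cells. In the mouse these include a progenitor state marked by Dpp4 and Pi16, which lies in the connective tissue around fat, and a committed preadipocyte state marked by Icam1 and Pparg that makes fat cells more readily in culture. Pparg is the nuclear receptor that drives fat cell differentiation, and Lpl releases fatty acids from circulating lipoproteins. Bmper is a secreted protein that binds bone morphogenetic proteins (BMPs) and can dampen or raise their signal, and Col15a1 encodes a collagen of the basement membrane zone.

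The markers of the label are genes of the rule, so their levels describe the chosen nuclei and do not check the label. They are given as shares of nuclei with a UMI after nuclei of at least 1000 UMIs were thinned to 1000, beside the same shares in immune, endothelial or adipocyte nuclei. Nuclei with fewer UMIs were left out of the shares: 660 of the 3971 committed nuclei, from 2.05% in cold iBAT to 40.8% in lPRAT at 2 months. Bmper (GRCm38 chr9:23223076-23485200, plus strand) was found in 49.8 to 81.3% of the committed nuclei across the 12 libraries, 0 to 6.25% of immune nuclei and 1.52 to 13.6% of adipocyte nuclei. Col15a1 (chr4:47208161-47313167, plus strand) was found in 13.8 to 62.6%, against 0 to 2.56% of immune nuclei and 0.365 to 17.9% of adipocyte nuclei. Pdgfra, the stromal receptor, was in 18.4 to 43.1% of the committed nuclei and at most 0.293% of immune nuclei. Pparg was in 36.3 to 68.7% of the committed nuclei and 53.4 to 90.0% of endothelial nuclei, and Lpl was in 27.6 to 53.4% and in 5.13 to 48.9% of immune nuclei. In adipocyte nuclei the Pparg share was 78.6 to 96.7% and the Lpl share 37.0 to 80.3%, both above the committed nuclei in each of the 12 libraries. Icam1, a surface marker often used for this state, was in 0 to 7.34% of the committed nuclei and up to 8.33% of immune nuclei (2 of 24, in iBAT at 1 month), against 0.0244 to 0.496% of adipocyte nuclei. Its share was above that of adipocyte nuclei in 11 of 12 libraries, as in lPRAT at 6 months (7.34% of committed, 0.149% of adipocyte and 2.70% of immune nuclei). In endothelial nuclei Icam1 was at 9.40% in that library, and it was above the committed nuclei in 7 of 12 libraries in endothelial and in 5 in immune nuclei. Median UMIs per nucleus before thinning were 1138 to 3456 in the committed nuclei and 912 to 2452 in immune nuclei.

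Most committed nuclei held Bmper or Col15a1: 3572 (90.0%) had a UMI of at least 1 of them, and 356 had UMIs of Pparg or Lpl and of no other committed gene, 50 of these of Lpl alone. Without thinning, the share with either gene was 68.4% in lPRAT at 2 months, 71.2% in cold mPRAT and 77.5% in mPRAT at 6 months, and up to 94.4%, in iWAT at room temperature. In lPRAT at 2 months Lpl (67.3%) and Pparg (64.3%) were more frequent than Bmper (60.2%) and Col15a1 (22.4%). None of the progenitor genes was seen in 3030 of the committed nuclei (76.3%). Just inside the threshold lay 441 nuclei with exactly 2 UMIs of the committed genes. Just outside lay 369 with 1, 64 with as many progenitor as committed UMIs, and 545 that met both conditions but carried Fmo2. In CPM (counts scaled to a total of 1000000 UMIs), summed over the committed nuclei of a library, Bmper ran from 1018 to 2832 with a median of 1843. Pparg ran from 549 to 1577 CPM and Col15a1 from 255 to 1422 CPM. Pdgfra ran from 244 to 642 CPM. These values chose the nuclei and are given as a description. Libraries shared 1 barcode among the committed nuclei.

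Per library, Bmper was at 1478, 1774, 1495 and 1018 CPM in mPRAT at 1, 2 and 6 months at room temperature and at 6 months in the cold, and at 2132, 1856, 1830.0 and 2553 CPM in iBAT in the same order, which is used for both depots throughout. It was at 1179 and 2832 CPM in lPRAT at 2 and 6 months and 2292 and 2178 CPM in iWAT at room temperature and in the cold. Each iBAT library lay above each mPRAT library. Col15a1 was at 831, 926, 670.2 and 372 CPM in mPRAT, 1422, 1347, 1323 and 627 in iBAT, 255 and 605 in lPRAT and 508 and 324 in iWAT. Pparg was at 681, 754, 622 and 1539 CPM in mPRAT, 1186, 1009.6, 1577 and 1477 in iBAT, 975 and 549 in lPRAT and 1031 and 924 in iWAT. In mPRAT and iBAT the cold library had the lowest Col15a1 level of its depot, and in iWAT the lower of 2, while the Pparg ranges of mPRAT and iBAT overlapped. These genes chose the nuclei, so their levels describe the chosen nuclei at the depth of each library, with no test.

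The libraries differed in depth and in what else they held. Library totals were 5461133 to 87035783 UMIs, and the committed nuclei of a library summed to 153324 (lPRAT at 2 months and cold mPRAT were the lowest) to 3772940 UMIs. The mitochondrial limit removed 66.0% of barcodes in cold mPRAT, 22.1% in mPRAT and 21.4% in lPRAT at 2 months, and at most 7.42% elsewhere. Some committed nuclei also held transcripts of mural cells, the pericytes and smooth muscle of vessels. Of the committed nuclei, 497 had a UMI of at least 1 of the mural genes Rgs5, Abcc9, Kcnj8, Myh11 and Acta2, from 3.50% of them in lPRAT at 6 months to 24.4% in cold iWAT and 33.2% in mPRAT at 6 months, against 1.09 to 16.2% of adipocyte nuclei. The 8 mural list genes summed to 280.4 to 1477 CPM in committed nuclei and 80.1 to 573 in progenitor-rule nuclei. Single libraries stood out for other cells: muscle genes reached 3212 CPM in iBAT at 2 months, mesothelial genes 548 CPM in the younger lPRAT library and 241 in cold mPRAT, and kidney and urothelium genes up to 202 CPM in mPRAT against 0 to 1.42 in iBAT. Results were therefore also computed on the 3174 committed nuclei left after 797 with transcripts of mural, endothelial, mesothelial, Schwann, kidney or urothelium, adrenal, lymphocyte or muscle cells were removed. Removal needed 1 UMI of the 5 mural genes or of 4 endothelial genes, or at least 2 UMIs of 1 of the 6 other lists. Nuclei with 1 UMI of those lists were thus kept. That step did not remove nuclei with adipocyte transcripts. Of the committed nuclei, 5.83% (mPRAT at 2 months) to 35.3% (cold iBAT) carried a UMI of Adipoq or Plin1, with 29.2% in iWAT at room temperature and 8.96% in cold iWAT, and the part of such nuclei in the results was not tested.

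The committed nuclei were a larger part of the stromal nuclei in iBAT and iWAT than in mPRAT and lPRAT. The shares cover nuclei of at least 1000 UMIs, thinned to 1000 and put through the rule again. This left out 1647 of the 8306 stromal nuclei as too shallow, from 3.86% in cold iBAT and 4.01% in mPRAT at 6 months to 44.1% in lPRAT at 2 months. Further nuclei no longer met the stromal rule once thinned, and 5478 stromal nuclei remained. In mPRAT at 6 months there were 561 after thinning against 774 before, and in cold iBAT 463 against 596. Committed nuclei were 70.4, 69.7, 68.7 and 64.8% of iBAT stromal nuclei at 1, 2 and 6 months at room temperature and at 6 months in the cold. In mPRAT they were 33.3, 34.8, 35.8 and 13.3%. In lPRAT they were 21.7 and 15.8% at 2 and 6 months, and in iWAT 69.2 and 68.1% at room temperature and in the cold. With nuclei carrying transcripts of other cells left out, the lPRAT shares were 28.8 and 29.1%. These were of 146 and 523 stromal nuclei, in place of 207 and 1025. Those of iWAT were then 70.1 and 67.0%. The iBAT and mPRAT libraries did not overlap: the means were 68.4% ± 2.50 (SD, n = 4 libraries of 4 conditions) and 29.3% ± 10.7 (SD, n = 4), 39.1 percentage points apart, with p = 0.0286 in an exact two-sided permutation test, the smallest that 4 against 4 allows. That test moves libraries freely between conditions. Swapping depots only within the 4 matched conditions gave p = 0.125 in an exact permutation test, the smallest that 16 arrangements allow, with iBAT higher in each condition by 32.9 to 51.5 points. Without thinning the difference was 39.8 points. It was 36.4 points when nuclei with transcripts of other cells were left out. A smaller share of nuclei and less RNA of these genes per nucleus cannot be told apart by a rule on counts.

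At 1000 UMIs, cold mPRAT had the lowest share of the 12 libraries, a rank it lost to lPRAT at 6 months (16.6%) when Fmo2 was ignored. Its difference from mPRAT at room temperature was −22.5 points, with a 95% interval of −28.0 to −16.6 that covers counting error only. In iBAT the cold library differed by −3.93 points (−9.82 to 1.94) and in iWAT by −1.10 points (−6.24 to 3.93), and both intervals include 0. These 2 differences depended on the depth used. That of iBAT was −7.28 points (−12.2 to −2.38) without thinning and −10.3 points (−17.5 to −2.95) at 500 UMIs. That of iWAT was −0.723 points (−5.09 to 3.57) without thinning and −6.83 points (−12.7 to −0.911) at 500 UMIs. With nuclei carrying transcripts of other cells left out they were −6.58 points (−12.6 to −0.530) and −3.18 points (−8.70 to 2.23). The Fmo2 condition bears on the mPRAT value: 247 of the 419 stromal nuclei of cold mPRAT carried Fmo2. With Fmo2 ignored, the share was 21.8% in the cold and 42.6% at room temperature, and the cold iBAT difference was 0.31 points. Cold mPRAT was also the library that lost most barcodes to the mitochondrial limit. Without that limit its share was 13.9%, and that of mPRAT at room temperature 37.8%. At room temperature the share moved by 2.50 points in mPRAT (−5.96 to 10.5) and −1.64 points in iBAT (−8.82 to 5.92) between 1 and 6 months, with both intervals including 0. The iBAT difference was 5.87 points without thinning and 2.69 at 500 UMIs, so its direction depended on the depth used. In lPRAT the share moved by −5.93 points between 2 and 6 months (−12.6 to −0.0163), but by 0.30 points with nuclei carrying transcripts of other cells left out and 0.14 when Bmper or Col15a1 was needed.

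**Figure D1:**
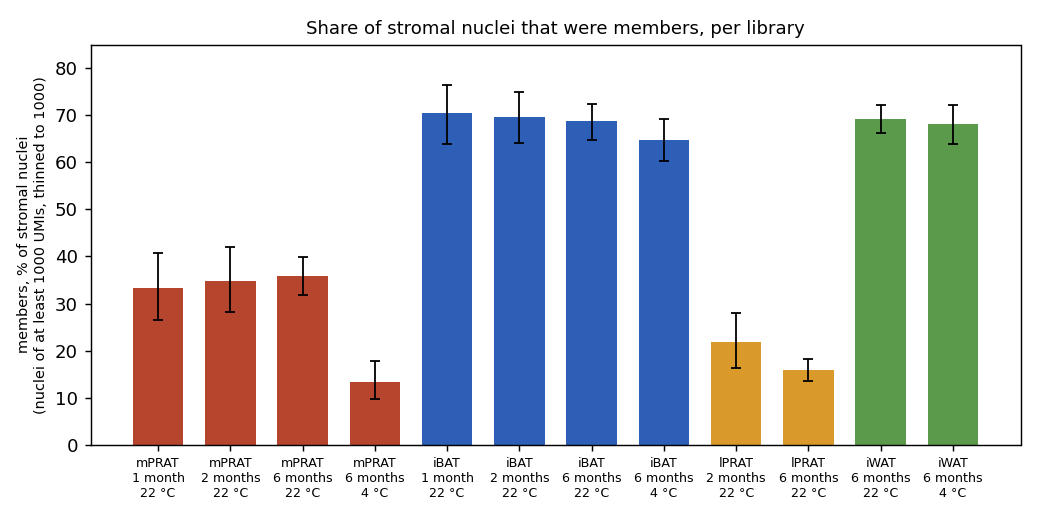
Share of stromal nuclei that were committed nuclei (bars, %, nuclei of at least 1000 UMIs thinned to 1000) in each of the 12 libraries, with exact 95% binomial intervals that cover counting error only. The 4 iBAT bars lie between 64.8 and 70.4%, the 4 mPRAT bars between 13.3 and 35.8%.

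Committed and progenitor-rule nuclei of the same library differed in many genes that the rule did not use. Both sets were chosen on counts of the same nuclei, so these ratios are a description with no test. Of 7533 genes with at least 20 CPM on either side, 274 (3.64%) were higher and 236 (3.13%) lower in the committed nuclei of all 12 libraries, and the median log2 ratio over all genes was 0.07 (10 CPM added to both sides). Genes of a list for committed preadipocytes, outside the rule, were higher: 10 of 11 in at least 9 libraries, 7 of them in all 12, with a median log2 ratio of 1.70. Of 7 mural genes, 5 were higher in at least 9 libraries and 3 in all 12, with a median of 1.61. Adipocyte genes, a list of 12 that holds Adipoq and Plin1 of the rule, had 7 higher and 0 lower in at least 9 libraries. Their median was 0.45, and 1 was higher in all 12. Over all genes 26.6% were higher in at least 9 libraries, and the part of adipocyte transcripts in these ratios was not tested. Of the genes named next, Sparcl1, Col4a1 and Col4a2 are also genes of vessel cells, and with nuclei carrying transcripts of other cells, mural ones included, left out, their median log2 ratios were 3.04, 2.42 and 2.41. Among the committed genes were Sparcl1, a matricellular protein (2.62), the basement membrane collagens Col4a2 (2.65) and Col4a1 (2.53), Fgf10, a growth factor that promotes fat cell formation (1.85), and the lipid droplet protein Plin2 (1.50). Genes of the list for progenitors were lower: 14 of 14 in at least 9 libraries and 9 in all 12, with a median of −2.48, led by the adhesion molecule Opcml (−4.14) and Limch1 (−3.83). Both lists were drawn up for these 2 states, so their direction is not independent of the rule.

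The genes with the highest ratios were of several kinds. Adam12, a membrane metalloprotease (chr7:133883199-134232146, minus strand), had a mean of 1437 CPM in committed and 140.0 CPM in progenitor-rule nuclei, a median log2 ratio of 3.88 and a range over libraries of 1.77 to 4.79. The secreted and matrix proteins Spon1 (3.47) and Smoc2 (2.64), the neurotrophin Ntf3 (3.11), the cyclic nucleotide phosphodiesterase Pde11a (3.44), the metalloreductase Steap4 (2.99), the muscarinic receptor Chrm3 (2.56) and Adcyap1r1, the receptor for the neuropeptide PACAP (2.75), were all higher in 12 of 12 libraries. Pappa, a protease that cleaves insulin-like growth factor binding proteins, was higher in 11 of 12 (3.04). Notch3, which is also a mural gene, had a ratio of 2.90, and 2.59 once nuclei with transcripts of other cells were left out. The lowest ratios included the axon guidance ligand Sema3e (−3.87), the matrix protease Adamts16 (−3.73), the collagen Col14a1 (−3.36), the sphingomyelinase Smpd3 (−3.30) and fibronectin, Fn1 (−2.84, lower in 11 of 12). The sizes and their order depended on the 10 CPM added: with 1 CPM added, 10 of the 40 highest and lowest medians moved by more than their SD over libraries and none changed sign, Adcyap1r1 (5.79) was above Adam12 (3.97), and Adamts16 (−5.97) was below Opcml (−4.21).

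Genes of the BMP pathway other than Bmper went both ways. Over all 7533 genes, 26.6% were higher and 15.9% lower in the committed nuclei in at least 9 libraries, the threshold of the counts that follow. Of 11 other BMP antagonists and modulators, 6 were lower in the committed nuclei in at least 9 libraries and 1 was higher, Fst (follistatin, 0.66), while 0 were higher and 0 lower in all 12. Of 6 ligands 3 were lower and 2 higher. Bmp6 (−1.97) and Bmp1, the procollagen protease (−0.81), were among the lower, and Bmp5 was higher in 11 libraries (0.95). Of 24 fibrillar and other matrix genes 10 were higher and 6 lower (6 and 1 in all 12), with Col5a3 (2.33) and Col6a3 (1.37) on the committed side. Of 17 WNT pathway genes 10 were lower and 3 higher (3 and 1 in all 12).

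**Figure D2:**
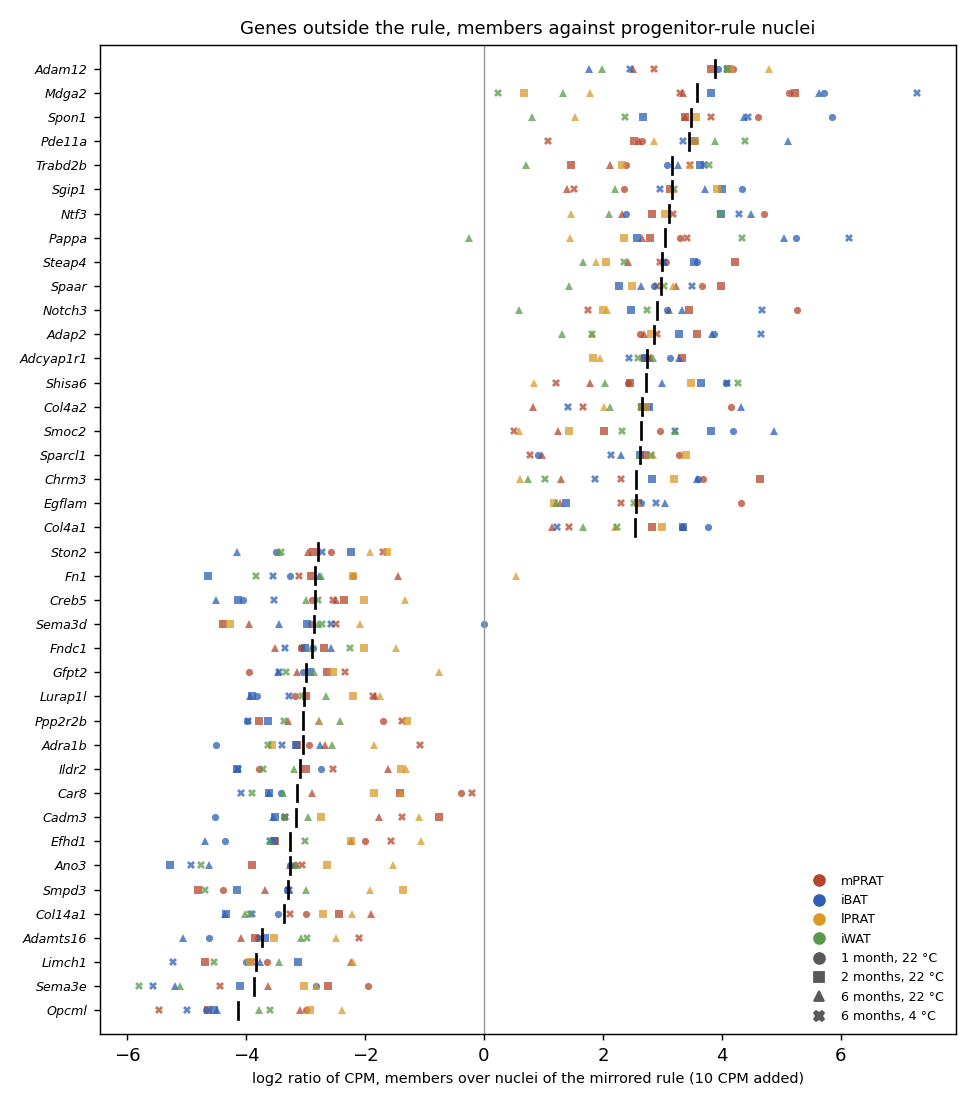
Log2 ratio of CPM (10 CPM added) in committed over progenitor-rule nuclei for the 20 highest and 20 lowest genes outside the rule (vertical axis). Each point is 1 of the 12 libraries, and the black bar is the median. Adam12 leads with a median of 3.88 and Opcml is lowest with −4.14.

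Against Fmo2-positive stromal nuclei, 85 of 7456 genes (1.14%) were higher and 46 (0.617%) lower in the committed nuclei of all 12 libraries, again as median log2 ratios with no test. Ratios of iBAT at 1, 2 and 6 months at room temperature rest on 24, 23 and 29 Fmo2-positive nuclei. The mesothelial gene Gpm6a had a mean of 41.1 CPM in committed and 1061 CPM in Fmo2-positive nuclei. This comparison was not repeated with nuclei carrying transcripts of other cells left out. The potassium channel gene Kcnq5 (2.67), the aminopeptidase Enpep (1.66), the G protein regulator Rgs6 (1.63), Col5a3 (1.47), Postn (periostin, 1.46) and Pde11a (1.35) were higher in each library. Plcxd3 (−3.46), Sema3d (−2.40) and Epha3 (−2.38) were lower in each. Rgs5 (1.60) and Notch3 (1.43), both mural genes, were higher in 11 and 11 libraries. All 6 mural list genes with at least 20 CPM on either side were higher in at least 9 libraries, with a median of 1.08, beside 20.4% of all genes. The part of mural transcripts in these ratios was not tested.

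Committed nuclei of iBAT and mPRAT differed in genes of position, growth factors, BMP ligands and matrix. In 1 fit of all 12 libraries, 444 of 9914 genes tested (4.48%) differed between iBAT and mPRAT at an adjusted p of at most 0.05, 140 (1.41%) higher and 304 (3.07%) lower in iBAT. The log2 differences below are iBAT minus mPRAT from this fit, over 4 libraries of each depot matched by condition, with Benjamini-Hochberg adjustment in edgeR. The median over all genes tested was 0.01. Leaving out 1 library moved the count of genes between 252 and 571. It was 252 without iBAT at 6 months, 265 without iBAT at 2 months, 285 without cold iBAT and 294 without mPRAT at 2 months. Unless stated, a gene named as higher or lower kept its call in each of these 12 fits.

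Genes that record position along the body axis divided the depots. Of 17 patterning genes tested, 2 were higher (Tbx15 and Meox1) and 9 lower in iBAT, with a median log2 difference of −1.43. Tbx15, a T-box factor of fat and limb development (chr3:99240381-99354259, plus strand), was at 460.2, 588, 453 and 489 CPM in the iBAT libraries and 24.3, 27.1, 10.0 and 0 CPM in the mPRAT libraries. The depots did not overlap, and the log2 difference was 5.07 ± 0.34 (SE), adjusted p = 4.29e-06. Tbx15 was at 95.6 and 63.3 CPM in lPRAT and 487 and 739.9 CPM in iWAT, so both lPRAT libraries lay above each mPRAT and below each iBAT library, and iWAT in or above the iBAT range. Adipocyte nuclei of the same libraries had 31.3, 49.4, 12.8 and 16.2 CPM in iBAT.

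Zic4 and Zic1, zinc finger genes of the dorsal neural tube and somites that were not on the list, were at 18.3, 28.5, 21.1 and 69.0 and 11.4, 17.1, 23.8 and 36.9 CPM in iBAT and at 0 in the committed nuclei of all 8 libraries of the other depots. Set against a floor of 3 counts over the 4 mPRAT libraries, they were at least 24.8-fold and 16.1-fold higher in iBAT (adjusted p = 0.00700 and 0.0203). The call of Zic4 was lost without cold iBAT (adjusted p = 0.0580), and that of Zic1 in 3 of 12 fits that left out 1 library (highest adjusted p = 0.157, without iBAT at 6 months). DESeq2 called neither (adjusted p = 0.581 and 0.639). Meox1, a homeobox gene of the somites, was also higher (3.88 ± 0.55 (SE), adjusted p = 0.00123). The HOX genes of the posterior trunk went the other way: Hoxc8 was at 68.1, 63.2, 56.3 and 58.7 CPM in mPRAT and 2.29, 5.70, 1.83 and 3.14 CPM in iBAT (−4.16 ± 0.36 (SE), adjusted p = 2.65e-05), with 82.8 and 87.7 in lPRAT and 85.1 and 65.3 in iWAT. Hoxc9, Hoxa10 and Hoxc10 had no UMI in any iBAT library and were at least 30.5-, 16.8- and 17.4-fold higher in mPRAT, and Hoxa9, with 1 UMI in iBAT against 53, was 99-fold higher (95% counting interval 17.0 to 3981). In lPRAT and iWAT, Hoxa9 was at 30.2 to 51.0 CPM, Hoxc9 at 12.7 to 50.3, Hoxa10 at 12.7 to 18.5 and Hoxc10 at 6.37 to 24.4. For these 5 Hox genes each lPRAT and iWAT library, like each mPRAT library, thus lay above each iBAT library, whereas for Tbx15 iWAT lay with iBAT.

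Wt1, a factor of the mesothelium and the visceral fat lineage, followed another pattern. It was at 58.4, 36.1, 73.3 and 39.1 CPM in mPRAT, 293 and 337 in lPRAT, 2.29, 2.85, 0 and 0 in iBAT and 0.265 and 0 in iWAT. It was present in the perirenal depots and near 0 in both others, and over the 4 matched libraries it was 75.3-fold (95% counting interval 25.2 to 370.3) higher in mPRAT than in iBAT (adjusted p = 0.000100). The mesothelial list, which does not hold Wt1, summed to 24.3, 49.7, 12.3 and 241 CPM in mPRAT, 548 and 306 in lPRAT and at most 5.30 in iBAT and iWAT, and its part in the Wt1 values was not tested. With nuclei left out that carried at least 2 UMIs of such transcripts, or transcripts of other cells, the adjusted p of Wt1 was 7.01e-06. Among adipogenic transcription factors, 1 of 22 differed, Nr2f2 (COUP-TFII), lower in iBAT (−2.09 ± 0.31 (SE), adjusted p = 0.00168), a share near the 4.48% of all genes tested. DESeq2 called 3, adding Klf5 and Gata2, both lower. When Bmper or Col15a1 was needed, 3 of 21 were called, Nr2f2, Prdm16 and Gata3, 1 of them higher and 2 lower in iBAT. Foxp2, a forkhead repressor outside the lists, was at 428, 573, 787 and 639 CPM in mPRAT and 93.9, 131, 131 and 122 CPM in iBAT (−2.34 ± 0.21 (SE), adjusted p = 3.33e-05), and at 47.5 to 95.4 in lPRAT and iWAT, so mPRAT stood above the other depots without overlap.

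Of 23 growth factors and receptors tested, 1 was higher and 7 were lower in iBAT, and the rest did not pass, with a median log2 difference of −0.57. Hgf, hepatocyte growth factor (chr5:16553495-16620152, plus strand), was at 185, 149, 271 and 346 CPM in mPRAT and 9.16, 11.4, 16.5 and 32.9 CPM in iBAT. Every mPRAT library lay above every iBAT library, and the log2 difference was −3.75 ± 0.29 (SE), adjusted p = 9.80e-06. Hgf was at 12.7 and 93.5 CPM in lPRAT and 48.5 and 45.0 CPM in iWAT, below the mPRAT range. Igf1, insulin-like growth factor 1, was at 404, 492, 380.2 and 900.0 CPM in mPRAT and 103, 49.8, 67.8 and 250.2 CPM in iBAT (−2.29 ± 0.37 (SE), adjusted p = 0.00310). Also lower in iBAT were Vegfd, a ligand for lymphatic endothelium (−1.81 ± 0.20 (SE), adjusted p = 0.000211), Cxcl12, a chemokine that retains blood cells (−2.29 ± 0.36 (SE), adjusted p = 0.00257), and the insulin-like growth factor binding protein Igfbp3 (−2.82 ± 0.43 (SE), adjusted p = 0.00171). Igfbp4 was lower too (−1.21 ± 0.25 (SE), adjusted p = 0.0144), a call lost in 3 of 12 fits that left out 1 library (highest adjusted p = 0.0785, without iBAT at 6 months). Vegfa was the gene of the list higher in iBAT (0.95 ± 0.24 (SE), adjusted p = 0.0423), lost in 6 of 12 fits that left out 1 library (highest adjusted p = 0.142, without mPRAT at 2 months).

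Lepr, the leptin receptor (chr4:101717404-101815352, plus strand), was high in mPRAT alone among the depots. It was at 68.1, 18.1, 197 and 189 CPM in mPRAT, 0, 1.42, 0 and 0.784 in iBAT, 0 and 0 in lPRAT and 7.69 and 5.30 in iWAT. In UMIs there were 303 in mPRAT and 2 in iBAT, a ratio of 283 with a 95% counting interval of 77.6 to 2346 (adjusted p = 2.26e-05). Adipocyte nuclei of mPRAT had 2.77, 1.08, 2.60 and 1.52 CPM and endothelial nuclei 37.5, 28.7, 139 and 137 CPM. With nuclei that carried transcripts of other cells left out, endothelial ones included, the call held (adjusted p = 7.61e-05).

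Within the BMP pathway, ligands and modulators differed between depots. None of 8 BMP receptors, 9 mediators and targets, or 13 genes of the TGF-beta and activin pathway passed the test in edgeR, while 2, 1 and 2 had an unadjusted p of at most 0.05, and DESeq2 called 0, 0 and 0. Over all 9914 genes tested, 1600 had such an unadjusted p, and DESeq2 called 492. With nuclei carrying transcripts of other cells left out, edgeR called the receptors Eng (endoglin, also an endothelial gene), higher in iBAT (adjusted p = 0.00975), and Acvr2a, lower (0.0290), and Eng again when Bmper or Col15a1 was needed (0.0413). Of 6 BMP ligands 1 was higher and 3 lower in iBAT, and of 9 antagonists and modulators other than Bmper 2 were higher and 2 lower. Fst (follistatin), which missed the threshold here (adjusted p = 0.0538), was called lower in iBAT by DESeq2, with nuclei carrying transcripts of other cells left out and when Bmper or Col15a1 was needed, and in the last 2 it was the sole lower modulator called. Bmp5 was at 105, 86.9, 302 and 345 CPM in iBAT and 9.72, 45.1, 14.7 and 6.52 CPM in mPRAT (3.50 ± 0.50 (SE), adjusted p = 0.00123), with at most 7.06 CPM in lPRAT and iWAT. The ranges did not overlap, and iBAT was the sole depot above 45.1 CPM. Tll1, a protease that cleaves the BMP antagonist chordin (3.31 ± 0.46 (SE), adjusted p = 0.00107), and Rgma, a BMP co-receptor (1.22 ± 0.21 (SE), adjusted p = 0.00453), were higher in iBAT, and Tll1 was also high in lPRAT (95.6 and 31.6 CPM) and iWAT (44.0 and 124 CPM). Gdf10 was lower in iBAT, at 6.87, 7.12, 6.42 and 7.84 CPM against 34.0, 40.6, 35.5 and 39.1 CPM (−2.53 ± 0.46 (SE), adjusted p = 0.00594), a call lost without mPRAT at 6 months (adjusted p = 0.0578). Bmp3, Bmp6, Chrdl1 and Twsg1 were lower in iBAT with adjusted p between 0.0230 and 0.0408. Their calls were lost in 4, 6, 5 and 9 of the fits that left out 1 library, with the highest adjusted p at 0.130, 0.140, 0.234 and 0.243.

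Matrix genes went in both directions. Of 24 fibrillar and other matrix genes 5 were higher and 5 lower in iBAT (median 0.29), and of 18 basement membrane genes 1 was higher and 3 lower (median 0.43). Several of these calls rested on single libraries: leaving out 1 library at a time, Col5a2 was lost in 9 of 12 fits, Fbln2, Col23a1 and Col4a6 in 6 each, Lama5 in 4 and Hspg2 in 2. Without cold iBAT, Col4a5 was the sole one of the 3 lower basement membrane genes still called. With nuclei carrying transcripts of other cells left out, 3 higher and 4 lower matrix genes and 0 higher and 1 lower basement membrane genes were called. Col6a3, a chain of collagen VI and the source of endotrophin (chr1:90765923-90843971, minus strand), was at 1227, 1253, 1146 and 618 CPM in iBAT and 399, 415, 386 and 228 CPM in mPRAT (1.56 ± 0.19 (SE), adjusted p = 0.000346). Its lowest iBAT library, the cold one, still lay above each mPRAT library. Col5a3 was higher in iBAT as well (1.74 ± 0.29 (SE), adjusted p = 0.00342), but cold iBAT, at 202 CPM, fell below 3 mPRAT libraries. Lower in iBAT were the basement membrane chain Col4a5 (−1.91 ± 0.31 (SE), adjusted p = 0.00329), the collagen VI chain Col6a6 (−1.24 ± 0.22 (SE), adjusted p = 0.00594), Fbln1, fibulin-1 (−3.15 ± 0.49 (SE), adjusted p = 0.00220), and Col14a1 (−1.64 ± 0.31 (SE), adjusted p = 0.00828), the last lost in 2 of 12 fits that left out 1 library (highest adjusted p = 0.0541, without mPRAT at 6 months). Col4a1 and Col4a2 missed the threshold, with log2 differences of 0.84 and 0.92 and adjusted p of 0.0512 and 0.0536, while DESeq2 called both higher in iBAT.

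Several further genes were sharply divided. Vit and Thsd4 are outside the lists and, like Foxp2, were named after their values were seen. Vit, the matrix protein vitrin (chr17:78508064-78627408, plus strand), was at 282, 271, 164 and 215 CPM in mPRAT and 27.5, 9.97, 12.8 and 14.9 CPM in iBAT (−3.85 ± 0.25 (SE), adjusted p = 4.29e-06). Thsd4, which helps build fibrillin microfibrils, had a log2 difference of −4.62 ± 0.35 (SE), adjusted p = 9.80e-06. In lPRAT Vit was at 153 and 132 CPM and Thsd4 at 140.2 and 115 CPM, above each iBAT library. Dkk2, a WNT antagonist, was at 253, 384, 219.8 and 209 CPM in mPRAT and 2.29, 12.8, 19.3 and 6.27 CPM in iBAT (−4.54 ± 0.41 (SE), adjusted p = 3.35e-05). Sfrp1, another WNT antagonist, was also lower in iBAT (−2.26 ± 0.47 (SE), adjusted p = 0.0153), lost in 3 of 12 fits that left out 1 library (highest adjusted p = 0.0992, without mPRAT at 1 month). These were the 2 of 17 WNT genes called in this fit. DESeq2 called 3 (Wnt5a as well), and 4 of 14 were called when Bmper or Col15a1 was needed (Wnt5a and Wnt5b as well), all lower in iBAT. With nuclei carrying transcripts of other cells left out, 4 of 11 were called (Wnt5b and Rspo3 as well), 1 higher and 3 lower in iBAT. On the iBAT side, Grm8, a glutamate receptor, was at 165, 66.9, 127 and 54.1 CPM against 9.72, 18.1, 6.17 and 0 CPM in mPRAT (3.72 ± 0.48 (SE), adjusted p = 0.000590), Angptl1, an angiopoietin-like protein, at 48.1, 45.6, 36.7 and 72.9 against 0, 0, 2.31 and 0 CPM (33.2-fold (95% counting interval 11.2 to 162) higher, adjusted p = 0.000327), and Fbln7, a fibulin, at 34.3, 41.3, 27.5 and 36.1 against 0, 9.03, 1.54 and 0 CPM (3.90 ± 0.59 (SE), adjusted p = 0.00168). Morc1, Oprd1 (the delta opioid receptor) and the noncoding RNA Crnde were the other genes among the 10 highest that met the naming rule (at least 20 CPM on 1 side and no overlap between depots, which leaves out the muscle gene Ttn), with 1, 1 and 3 UMIs over the mPRAT libraries. They were 72.8-fold (95% counting interval 12.9 to 2898), 37.0-fold (95% counting interval 6.42 to 1481) and 16.6-fold (95% counting interval 5.51 to 82.0) higher in iBAT. Crnde lost its call in 2 of 12 fits that left out 1 library (highest adjusted p = 0.0782, without mPRAT at 6 months).

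Of the 10 lowest genes that met the naming rule, 8 were higher in mPRAT in adipocyte nuclei of the same libraries as well. Sprr1a, Tmprss2, Wfdc2, Ly6d, Igfbp2, Ehf, Syt8 and Ptprr had no UMI in iBAT committed nuclei and were at least 14.3- (Ptprr) to 39.8-fold (Tmprss2) higher in mPRAT. Tmprss2 was at 29.2, 99.3, 6.94 and 176 CPM in mPRAT committed nuclei and 73.8, 119, 11.6 and 118 CPM in mPRAT adipocyte nuclei, and at most 0.582 CPM in iBAT adipocyte nuclei. Each of the 8 was above 2 CPM in every mPRAT library of adipocyte nuclei. Calls of all 8 except Tmprss2 were lost in 1 to 6 of the fits that left out 1 library and tested them. Sprr1a, Wfdc2, Ly6d, Igfbp2, Syt8 and Ptprr were tested in 10 of the 12 such fits, and had no call in the others either. DESeq2 did not call Sprr1a, Wfdc2 or Ly6d (adjusted p = 0.366 to 0.408). Likewise Ucp1, the thermogenic gene of brown adipocytes, was higher in iBAT committed nuclei (52.7, 117, 80.7 and 167 against 9.72, 9.03, 6.17 and 52.2 CPM), with 338, 506, 429.7 and 1457 against 109.6, 244, 185 and 685 CPM in adipocyte nuclei. Of the kidney and urothelium list, 3 genes were tested and 0 were higher in iBAT. Among them Upk1b had 46 UMIs in mPRAT and 0 in iBAT committed nuclei, and was still called with nuclei carrying transcripts of other cells left out. Its call was lost without cold mPRAT (adjusted p = 0.0648), and DESeq2 did not call it (0.378). The mesothelial gene Krt19 had 35 UMIs in mPRAT and 1 in iBAT. The Krt19 call was lost in 4 of 12 fits that left out 1 library (highest adjusted p = 0.346, without cold mPRAT), and DESeq2 did not call it. The part of free RNA and of other cells in these results was not tested.

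**Figure D3:**
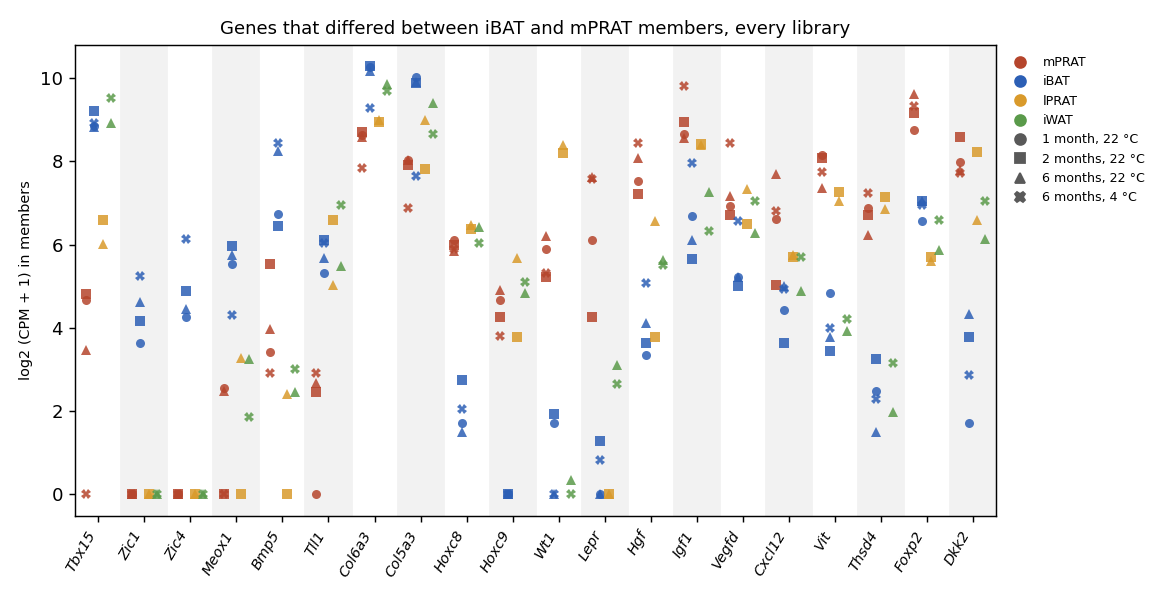
Levels of 20 genes that differed between iBAT and mPRAT, as log2 (CPM + 1) in the committed nuclei (members in the plot) of every library (points, coloured by depot, shaped by condition). Tbx15 is high in iBAT and iWAT, and the Hox genes, Wt1, Lepr and Hgf are lower in iBAT than in each mPRAT library. The call of Zic4 is lost without cold iBAT and that of Zic1 in 3 fits.

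Arntl, Npas2 and Per3, genes of the circadian clock, were among the 10 genes that passed the cold test. Between cold and room temperature at 6 months, over mPRAT, iBAT and iWAT as 3 matched pairs, 10 of 9914 genes (0.101%) passed the test in edgeR, 3 higher (0.0303%) and 7 lower (0.0706%) in the cold. Arntl, also named Bmal1, the activating arm of the circadian clock (chr7:113207465-113314126, plus strand), went from 70.2 to 13 CPM in mPRAT, from 81.6 to 7.84 in iBAT and from 97.8 to 14.1 in iWAT between room temperature and cold. It fell in all 3 pairs, and the 3 cold values lay below each of the 3 at room temperature, with a log2 difference of −2.92 ± 0.37 (SE), adjusted p = 0.0104. The committed nuclei of cold mPRAT summed to 153324 UMIs. Low levels there, as of Arntl here and of Creb3l1 and Nhsl2 below, thus rest on few UMIs. Npas2, a partner of Arntl, went from 134 to 45.7 CPM in mPRAT, from 164 to 13.3 in iBAT and from 68.1 to 7.95 in iWAT (−3.00 ± 0.38 (SE), adjusted p = 0.0104). Per3, of the repressing arm, went from 44.0 to 196 CPM in mPRAT, from 58.7 to 191 in iBAT and from 61.2 to 131 in iWAT, higher in the cold in all 3 pairs without overlap (1.64 ± 0.25 (SE), adjusted p = 0.0255). Other clock genes did not pass: the log2 differences were 1.57 for Per2 (adjusted p = 0.155), 1.40 for Dbp (0.207), 1.02 for Tef (0.0536), 1.20 for Cry1 (0.341), −0.50 for Clock (0.558) and 0.05 for Nr1d1 (1.000). With nuclei carrying transcripts of other cells left out, Per2 (adjusted p = 0.0472) and Tef (0.0298) passed too. These 6 were named after their values were seen. No list of clock genes was set beforehand, so no share of clock genes is given, and values of Cry2, Nr1d2 and Ciart are not reported here. The time of day at which tissue was taken is not in the labels, so cold and time of day cannot be told apart.

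In adipocyte nuclei of these libraries Arntl went from 18.8 to 49.9 CPM in mPRAT, from 12.3 to 66.1 in iBAT and from 29.7 to 24.3 in iWAT, higher in the cold in 2 of 3 depots. Npas2 there went from 2.33 to 13.1 CPM in mPRAT, from 0.812 to 2.89 in iBAT and from 9.58 to 2.82 in iWAT, also higher in the cold in mPRAT and iBAT. The difference between the 2 kinds of nuclei was not tested. In progenitor-rule nuclei Arntl went from 79.1 to 11 CPM in mPRAT, from 81.2 to 5.99 in iBAT and from 93.0 to 12.4 in iWAT, lower in the cold in each pair as in the committed nuclei. Npas2 in progenitor-rule nuclei went from 82.1 to 22.1 CPM in mPRAT, from 81.2 to 0 in iBAT and from 83.5 to 18.6 in iWAT, again lower in each pair. Across room-temperature ages Arntl in committed nuclei was at 14.6, 31.6 and 70.2 CPM in mPRAT and 29.8, 17.1 and 81.6 CPM in iBAT at 1, 2 and 6 months, highest at 6 months in both depots.

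Because their levels moved in opposite directions, the 250 bases upstream of Per3 and Arntl are shown, with matches to the D-box TTATGTAA, bound by Dbp and Tef, in capitals. The sequences are RefSeq promoter windows on GRCm38.p6, read 5′ to 3′ on the strand of the gene.
Per3, chr4:151044666-151044915, minus strand: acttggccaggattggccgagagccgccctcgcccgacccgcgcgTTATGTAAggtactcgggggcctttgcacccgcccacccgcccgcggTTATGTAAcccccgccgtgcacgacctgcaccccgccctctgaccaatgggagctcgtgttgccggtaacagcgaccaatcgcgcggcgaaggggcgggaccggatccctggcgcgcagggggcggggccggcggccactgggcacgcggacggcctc
Arntl, chr7:113207215-113207464, plus strand: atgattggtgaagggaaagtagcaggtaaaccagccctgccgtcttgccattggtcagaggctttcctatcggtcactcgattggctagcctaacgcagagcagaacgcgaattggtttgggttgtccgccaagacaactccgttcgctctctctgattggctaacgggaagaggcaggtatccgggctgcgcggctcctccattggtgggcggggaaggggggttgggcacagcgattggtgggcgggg
The Per3 window held the D-box 2 times, starting 205 and 158 bases before the gene's start, and the Arntl window held none. On both strands TTATGTAA occurred in 0.819% of 32851 such windows, the E-box CACGTG, bound by Arntl, in 6.02%, and AGGTCA, the core of the site for the Nr1d and ROR receptors, in 14.0%. Neither CACGTG nor AGGTCA was in either window. A further Arntl window, chr7:113207261-113207510, held none of these motifs, nor did the windows of Npas2, Sult5a1 and Rcan2. Both Tef windows held CACGTG. Exact matches alone were sought, so variant sites would be missed. A match here describes letters, not binding.

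Another 2 genes were higher in the cold. Sult5a1, a sulfotransferase, went from 62.5 to 176 CPM in mPRAT, from 109 to 664 in iBAT and from 14.8 to 53.0 in iWAT (1.88 ± 0.31 (SE), adjusted p = 0.0403), and Rcan2, an inhibitor of calcineurin, from 98.7 to 300.0 CPM in mPRAT, from 64.2 to 147 in iBAT and from 104 to 293 in iWAT (1.38 ± 0.20 (SE), adjusted p = 0.0255). Sult5a1 in adipocyte nuclei was at most 52.9 CPM, in cold iBAT. Both were higher in the cold in all 3 pairs, and Sult5a1 was highest in cold iBAT. Lower in the cold were Srgap3, a regulator of Rac (−2.68 ± 0.40 (SE), adjusted p = 0.0255), Creb3l1, a membrane-bound factor that induces collagen genes (−1.94 ± 0.30 (SE), adjusted p = 0.0255), Nhsl2 (−1.85 ± 0.32 (SE), adjusted p = 0.0497) and Cdh11, a cadherin of mesenchymal cells (−1.45 ± 0.24 (SE), adjusted p = 0.0396), each in 3 of 3 pairs. Creb3l1 went from 52.4 to 13 CPM in mPRAT, from 88.0 to 17.3 in iBAT and from 105 to 38.0 in iWAT. Nhsl2 went from 120.3 to 19.6 CPM in mPRAT, from 126 to 57.3 in iBAT and from 125 to 21.2 in iWAT, and lay higher in the adipocyte nuclei of all 6 libraries.

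These calls rested on few libraries. Without cold iBAT no gene passed, with adjusted p of 0.130 for Arntl and Npas2, 0.219 for Per3 and 0.0653 to 0.314 over the 9 named genes, while each kept its direction. Arntl and Npas2 kept their call in the other 11 such fits. DESeq2 gave no adjusted p for Arntl, and called the other 8 named genes. Creb3l1 also lost it without iBAT at 2 months (adjusted p = 0.0623), and Per3 also without iBAT at 2 months, mPRAT at 6 months and cold mPRAT, with adjusted p up to 0.0596. Srgap3, Rcan2, Cdh11, Nhsl2 and Sult5a1 lost it in 4, 6, 7, 7 and 7 of 12 fits. The count of genes was 2 without iBAT at 2 months, 6 without mPRAT at 6 months, 17 without iBAT at 6 months, 34 without either lPRAT library, and 25 and 26 without iWAT at room temperature and in the cold. In a fit of the 6 libraries at 6 months alone, 0 genes passed, with 848 at an unadjusted p of at most 0.05, and adjusted p of 0.0674 for Arntl.

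No gene of the lists for pathways, matrix, growth factors or patterning passed the cold test in the edgeR fit of all committed nuclei. Of the 24 matrix genes 12 had an unadjusted p of at most 0.05, and DESeq2 called 4. Over all 9914 genes tested, 823 had such an unadjusted p, and DESeq2 called 60. The median of the matrix list was −0.54, with 6 of 24 genes above 0, beside −0.01 over all genes tested. Col5a3 went from 261 to 117 CPM in mPRAT, from 966 to 202 in iBAT and from 679 to 405 in iWAT (−1.53 ± 0.34 (SE), adjusted p = 0.105). With nuclei that carried transcripts of other cells left out, 57 genes passed in place of 10, 20 higher and 37 lower. Among these were Col5a3 (adjusted p = 0.0381), Col6a1 (0.0392), Col6a6 (0.0403) and Srebf2, the regulator of cholesterol synthesis (0.0214), all lower in the cold. Of the lists, Thbs1 (thrombospondin 1, 0.0214) was also lower, and Rspo3, a WNT agonist (0.0472), and Vegfd (0.0350) were higher. Vegfd was called higher in DESeq2 (0.00607) and when Bmper or Col15a1 was needed (0.0395) as well. Other list genes called lower were Limch1, Fn1 and Postn in DESeq2 and Fn1 and Dgat2 when Bmper or Col15a1 was needed. All these were named after their values were seen.

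**Figure D4:**
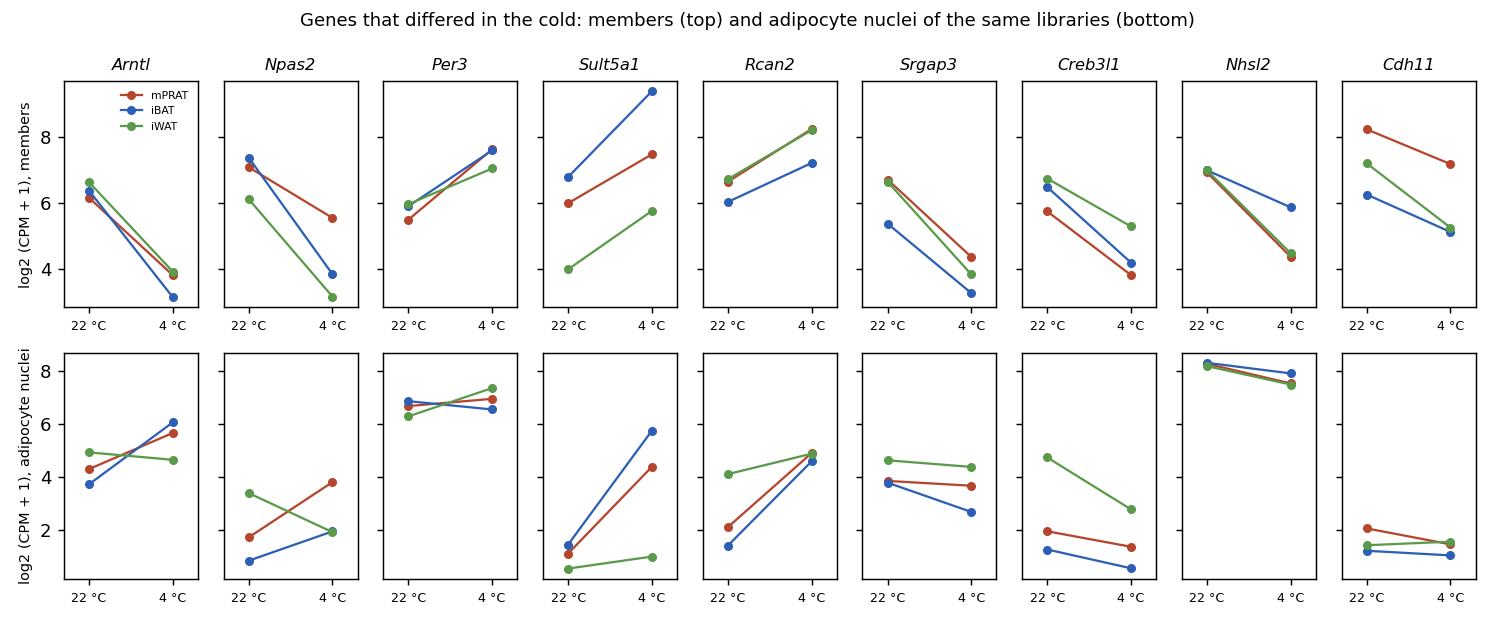
Levels at 22 and 4 °C at 6 months, as log2 (CPM + 1), of 9 genes that passed the cold test and moved 1 way in all 3 depots, in committed nuclei (top) and in adipocyte nuclei of the same libraries (bottom). Each line joins the 2 libraries of a depot. Arntl and Npas2 fall in the committed nuclei of mPRAT, iBAT and iWAT, while in adipocyte nuclei Arntl is higher in the cold in mPRAT and iBAT.

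Between 1 and 6 months at room temperature, with mPRAT and iBAT as 2 matched pairs, 11 genes (0.111%) passed, 1 higher (0.0101%) and 10 lower (0.101%) at 6 months. Zbtb16, a zinc finger factor induced by glucocorticoids and known as PLZF, was at 3384, 3088 and 873 CPM in mPRAT and 5795, 4461 and 846 CPM in iBAT at 1, 2 and 6 months, the order used below. It was lower at each later age in both depots, with a log2 difference of −2.40 ± 0.28 (SE), adjusted p = 0.00474. lPRAT went from 1618 CPM at 2 months to 683 at 6 months. Adipocyte nuclei of these libraries had 2641, 1518 and 909 CPM in mPRAT and 2412, 1154 and 184 CPM in iBAT, also lower at each later age. Of the 8 glucocorticoid-responsive genes, Zbtb16 alone passed in this fit, and the list's median was −1.02, beside 0.02 over all genes tested. Fkbp5, a chaperone of the glucocorticoid receptor, was at 899.6, 1169 and 541 CPM in mPRAT and 1958, 1257 and 450.2 CPM in iBAT and missed the threshold (−1.58 ± 0.30 (SE), adjusted p = 0.0680). It passed in DESeq2 (adjusted p = 0.00215) and with nuclei carrying transcripts of other cells left out (0.0215), lower at 6 months in both.

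C3, complement component 3, was the sole gene called higher at 6 months in this fit, at 58.4, 63.2 and 205 CPM in mPRAT and 18.3, 32.8 and 110.0 CPM in iBAT (2.06 ± 0.31 (SE), adjusted p = 0.0179). lPRAT had 76.4 CPM at 2 months and 275 at 6 months. DESeq2 called 8 genes higher and 46 lower, and the edgeR fit 3 and 23 when Bmper or Col15a1 was needed. Of the list genes, DESeq2 also called Plin2, the lipid droplet protein, higher (adjusted p = 0.0146), and Tgfb3, a TGF-beta ligand (0.0193), and Zfp423, a preadipocyte zinc finger factor (0.0473), lower. Lower at 6 months were Klf13, a Krüppel-like factor, at 287, 199 and 105 CPM in mPRAT and 401, 305 and 106 CPM in iBAT (−1.79 ± 0.23 (SE), adjusted p = 0.00691), Zdhhc1, a palmitoyltransferase (−1.86 ± 0.25 (SE), adjusted p = 0.00826), and Lrfn2, a synaptic adhesion gene (−2.11 ± 0.29 (SE), adjusted p = 0.00826). Tfrc, the transferrin receptor, was at 92.4, 13.5 and 13.9 CPM in mPRAT and 188, 99.7 and 50.4 CPM in iBAT (−2.41 ± 0.36 (SE), adjusted p = 0.0179), and in adipocyte nuclei at 418, 155 and 94.1 CPM in mPRAT and 1524, 566 and 223 CPM in iBAT. Tef, a D-box factor, was lower at 6 months (−1.28 ± 0.21 (SE), adjusted p = 0.0313). As the labels give no time of day, age and time of day cannot be told apart for Tef or the other genes of this contrast. Cdh19, a cadherin also found in Schwann cells, was lower as well (−2.23 ± 0.35 (SE), adjusted p = 0.0201). The 6 Schwann list genes summed to 331 CPM at 1 month and 171 at 6 months in mPRAT and to 385 and 18.3 in iBAT, their part in the result was not tested, and the Cdh19 call was lost when nuclei with transcripts of other cells were left out (adjusted p = 0.316). Slc14a2, a urea transporter of the kidney, was at 229 CPM in mPRAT at 1 month and 10.8 at 6 months, and at 339 and 98.7 in adipocyte nuclei (−4.56 ± 0.70 (SE), adjusted p = 0.0186). The remaining 2 of the 11 were Gm26917 and Gm48099, gene models without a name.

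Each of these 9 named calls was lost without iBAT at 1 month, where the contrast rests on 1 pair (adjusted p = 0.145 for Zbtb16 and up to 0.432 for the others), and all but Zbtb16 were also lost without mPRAT at 1 month (adjusted p = 0.115 to 0.786). Their directions stayed the same in both fits. The count of genes was 1 without iBAT at 1 month, 2 without mPRAT at 1 month, 18 without cold mPRAT, 27 and 23 without lPRAT at 2 and 6 months, and 22 without either iWAT library. Tef was lost in 9 of 12 such fits. Depth moved with age in mPRAT: the median UMIs of a committed nucleus were 1355 at 1 month and 3456 at 6 months in mPRAT, but 1388 and 1344 in iBAT.

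**Figure D5:**
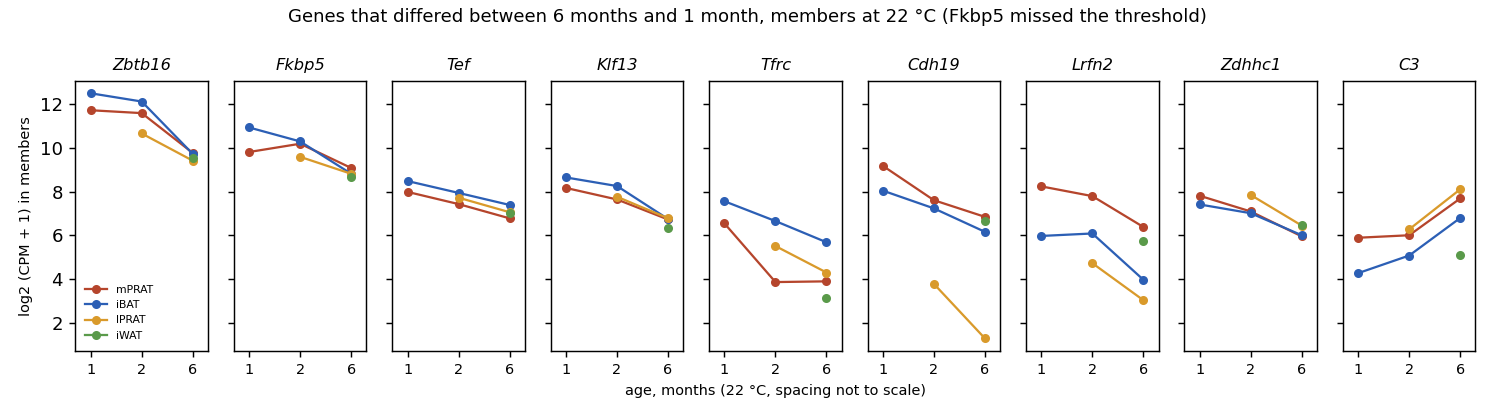
Levels as log2 (CPM + 1) in committed nuclei at room temperature by age in months (spacing not to scale) for 8 genes that passed the age test and for Fkbp5, which missed it. Each line is a depot, and iWAT has 6 months alone. Zbtb16 is lower at 6 months than at 1 month in both depots that have both ages, and C3 is higher.

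Nuclei with at least 3 UMIs of the dividing-cell list (Mki67, Top2a and other genes of mitosis) were rare among the committed nuclei and most frequent in cold iBAT. There they were 12 of 391 (3.07%, exact 95% interval 1.60 to 5.30%), against 0 of 637 in iBAT at room temperature, which allows a share of up to 0.471% (3 counts of the total, where the exact 95% upper bound is 0.577%). In cold iWAT they were 0 of 491 (up to 0.611%, exact bound 0.748%), and in lPRAT at 6 months 6 of 257 (2.33%). In cold iBAT the same count was 0 of 80 in progenitor-rule nuclei (up to 3.75%, exact bound 4.51%), 0.182% in adipocyte nuclei and 8.48% in immune nuclei. Cold iBAT was also deeper, with 2935 median UMIs per committed nucleus against 1344, and the part of depth in these shares was not tested. With 1 library per group the intervals cover counting error only.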

How the data were processed

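Nuclei sorted with 7-AAD were profiled with a 3′ single-cell kit, and 12 filtered matrices of UMI counts (32285 gene rows) were deposited by the authors, made with Cell Ranger 7.0.0 per the file headers on mm10 per the submitters' processing notes; the steps before them are not given further in the sources used here. Library totals and losses are in the report. Nuclei were chosen by the stated rule, counts were summed per library, and edgeR 4.0.16 (R 4.3.3) fitted depot plus condition to the 12 sums with TMM scaling, filterByExpr at a minimum count of 10, the quasi-likelihood test and Benjamini-Hochberg adjustment. Genes of the rule were not counted as called. The members and the gene lists were chosen with earlier results of these data known. Named by rule were up to 10 genes in each direction with an adjusted p of at most 0.05, at least 20 CPM on 1 side and no overlap between groups (or, with 2 or 3 pairs, each pair in 1 direction), leaving out unnamed gene models, and list genes with the largest changes; Vit, Thsd4, Foxp2 and the clock genes that missed the threshold were chosen after their values were seen. Ratios to other stromal nuclei used 10 CPM added, on which their size and order depend, with no test. For shares, nuclei of at least 1000 UMIs were thinned to 1000 and shallower ones left out, and intervals are exact Clopper-Pearson, with 3 counts of the total given beside the exact bound for a count of 0. Promoter windows came from RefSeq on GRCm38.p6 and coordinates from GENCODE M21. Doublets were kept in the main values, and an alternative left out nuclei with high scrublet scores (scanpy 1.11.5), at an assumed rate of 0.8% per 1000 nuclei because the caller's own threshold marked between 0 and 4906 nuclei. Alternatives with nuclei carrying other cells' transcripts left out, without the smallest libraries, without scaling, with 1 CPM added, with Fmo2 ignored and with depots swapped only within conditions were added after seeing the data. So were the shares without the mitochondrial limit and the share tests that left out 1 library. The fit was also run on simulated counts with changes set between iBAT and mPRAT. Its outcome is not reported here, and the cold and age contrasts were not simulated. Some genes that passed a test are counted but not reported by name here.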

Additional observations from a re-analysis of the deposited data

Results flagged for a closer look

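The share of committed nuclei in cold mPRAT, 13.3% of stromal nuclei, stood apart from the other 3 mPRAT libraries: its gap to the nearest of them was 0.889 of the range of the 4. These 4 libraries are 4 conditions and not replicates, and chance flags about 1 in 20 groups.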

How the results depend on the processing

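The call counts of the depot contrast were within 1.5 times of 444 in each alternative on all 12 libraries except without a filter on low counts, which gave 961. Those of the cold and age contrasts were not stable. Against 10 genes for cold, there were 320 without a filter, 60 by DESeq2, 40 when Bmper or Col15a1 was needed, 23 with Lpl left out of the rule, 17 without high doublet scores, 57 without nuclei carrying transcripts of other cells, 59 without cold mPRAT and lPRAT at 2 months, 2 with at least 1000 genes per nucleus and 0 with the 6-month libraries alone. Against 11 genes for age, there were 242 without a filter, 54 by DESeq2, 26 when Bmper or Col15a1 was needed, 28 without nuclei carrying transcripts of other cells, 46 without those 2 libraries and 4 with at least 1000 genes. The cause of these moves was not tested. Leaving out each library in turn gave 252 to 571 genes for depot, 0 to 34 for cold (none without cold iBAT) and 1 to 27 for age (the fewest without iBAT at 1 month). The share difference between iBAT and mPRAT was 33.7 to 41.2 points in those fits, where 35 arrangements allow no p below 0.0571, and 32.0 points at 500 UMIs per nucleus. With depots swapped only within the 4 matched conditions the difference of 39.1 points had p = 0.125 (exact permutation test), the smallest possible. No gene named from a test changed direction in the alternatives run. Among differences of the share within a depot, that of iBAT between ages turned without thinning and at 500 UMIs, that of lPRAT with nuclei of other cells' transcripts left out or Bmper or Col15a1 needed, and that of cold iBAT with Fmo2 ignored. The labels give no replicate numbers, and libraries are paired through the terms for depot and condition. Each group is 1 library, cold mPRAT and lPRAT at 2 months hold the fewest committed nuclei, and genes of few UMIs there were not measured precisely.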
